A study of Homo sapiens with 6 samples.

Results

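The genes described here carry out or restrain apoptosis, the ordered death of a cell. They comprise caspases, death receptors with 1 of their ligands, the adaptors of these receptors, the BCL2 family, the apoptosome and the inhibitors of apoptosis. In all, 42 gene symbols were listed by these functions, and the measured values were not part of the rule. The list was made with earlier results of these data known, however. Each symbol was looked up through the Ensembl identifiers of the table, which holds 59192 features. A row was found for 35 of the 42 genes, and 33 of these had a mean of at least 10 normalized counts over the 6 libraries and were tested together with all other such features, 21703 in total. CASP1 and HRK had a row but stayed under this mean. CFLAR, TRADD, BCL2L2, MCL1, BOK, DIABLO and CASP5 had no row under an Ensembl identifier among the rows used and were not analysed here.

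Apoptosis can be started from outside or from inside the cell. Ligands such as TRAIL bind death receptors at the surface, which recruit FADD and the initiator caspases CASP8 and CASP10, and FLIP, the product of CFLAR, holds this step back. Damage inside the cell is read by BH3-only proteins, which free BAX and BAK1 from BCL2 and its relatives to open the mitochondrial outer membrane. Cytochrome c then leaves the mitochondria and joins APAF1 and CASP9 in the apoptosome, while XIAP and related proteins restrain the caspases. In colorectal tumours the TRAIL receptors are of interest because their ligand can kill tumour cells.

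RNA was sequenced from SW480, a cell line from a human colorectal adenocarcinoma. Both groups derived from cells with lentiviral Cas9 that had been selected with puromycin. These cells then received a second lentivirus with a guide RNA and EGFP. In the SW480-45 cells, whose genotype label is HPSE-knockdown, the guide was directed at HPSE, the gene of heparanase, and in the SW480-NC cells it was a control guide. Each group had 3 libraries from independent experiments. SW480-45 was taken to be the only sequenced knockdown line that the study describes. The sources used here do not say whether either line was a single clone, and 1 guide stands for the knockdown, so that effects of the guide or of the line cannot be told apart from effects of lower HPSE.

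The 6 libraries held between 33221323 and 39802365 reads assigned to features. HPSE itself had 136, 172 and 146 normalized counts in SW480-45 and 269.9, 295 and 246 in SW480-NC. Its transcript thus stood at 56.1% of the control mean. Transcript counts do not measure the heparanase protein, whose knockdown the study assessed by western blot and describes as efficient. The log2 fold change of the HPSE transcript was −0.83 (SE 0.14), with an adjusted p of 0.0547 from limma. Of all 21703 features, 174 passed an adjusted p under 0.05, which is 0.802%. Among markers of colon epithelium, EPCAM lay between 16775 and 18783 normalized counts in every library, whereas CDH17 was listed at 0 in 5 of the 6 and CDX2 did not exceed 40.3. The 7 of 10 colon markers with a row summed to 111278 to 119777 normalized counts in SW480-45 and to 128944 to 136559.6 in SW480-NC. Of the 6 tested, 5 were below 0, and at an unadjusted p under 0.05 from limma KRT8 and KRT20 were lower and VIL1 higher. KRT20, a keratin of mature colonocytes, fell by 0.81 on the log2 scale (SE 0.07, adjusted p = 0.00719 from limma). Of 4 leukocyte markers only LYZ had a row used here, with 59444 to 62190.0 normalized counts in SW480-45 and 67163 to 71955 in SW480-NC. All 6 libraries came from a cultured cell line, so that LYZ alone is not read here as a sign of leukocytes. The summed fibroblast and endothelial markers, 4 of 5 with a row, reached 261 to 387 in SW480-45 and 214 to 273 in SW480-NC, and COL1A2 was at 0 in 5 libraries. The 3 tested markers of that list were all above 0 in log2 fold change, with a median of 0.67, and COL1A1 was at 0.48 (unadjusted p = 0.0458 from limma). The part of these markers in the results was not tested.

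No apoptosis gene changed at an adjusted p under 0.05 from limma, as against 0.802% of all features. The quasi-likelihood test of edgeR also called 0 of the 33, beside 0.627% of all features, and DESeq2 called 3 of them, CASP10, CASP9 and TNFRSF21, beside 3.48% of all features. At an unadjusted p under 0.05 from limma, 4 genes were higher in SW480-45, namely CASP10, CASP9, TNFSF10 and BMF, and 6 were lower, namely CASP8, FAS, TNFRSF21, RIPK1, CYCS and XIAP. These counts are 12.1% and 18.2% of the 33 genes, beside 8.1% of all features higher and 8.15% lower. The 3 SW480-45 values lay above all 3 SW480-NC values for the same 4 genes (11.4% of all features did so) and below them for 7 genes, the 6 above and TNFRSF10A (12.0% of all features). Only CASP10 joined an unadjusted p under 0.05 with a difference of at least 2-fold, as 2.42% of all features did. Of the 33 log2 fold changes, 18 were above 0 and 15 below, with a median of 0.046, beside −0.0048 over all features. In bulk RNA, fewer cells that make a transcript and less of it per cell cannot be told apart, and this holds for each value below.

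**Figure D1:**
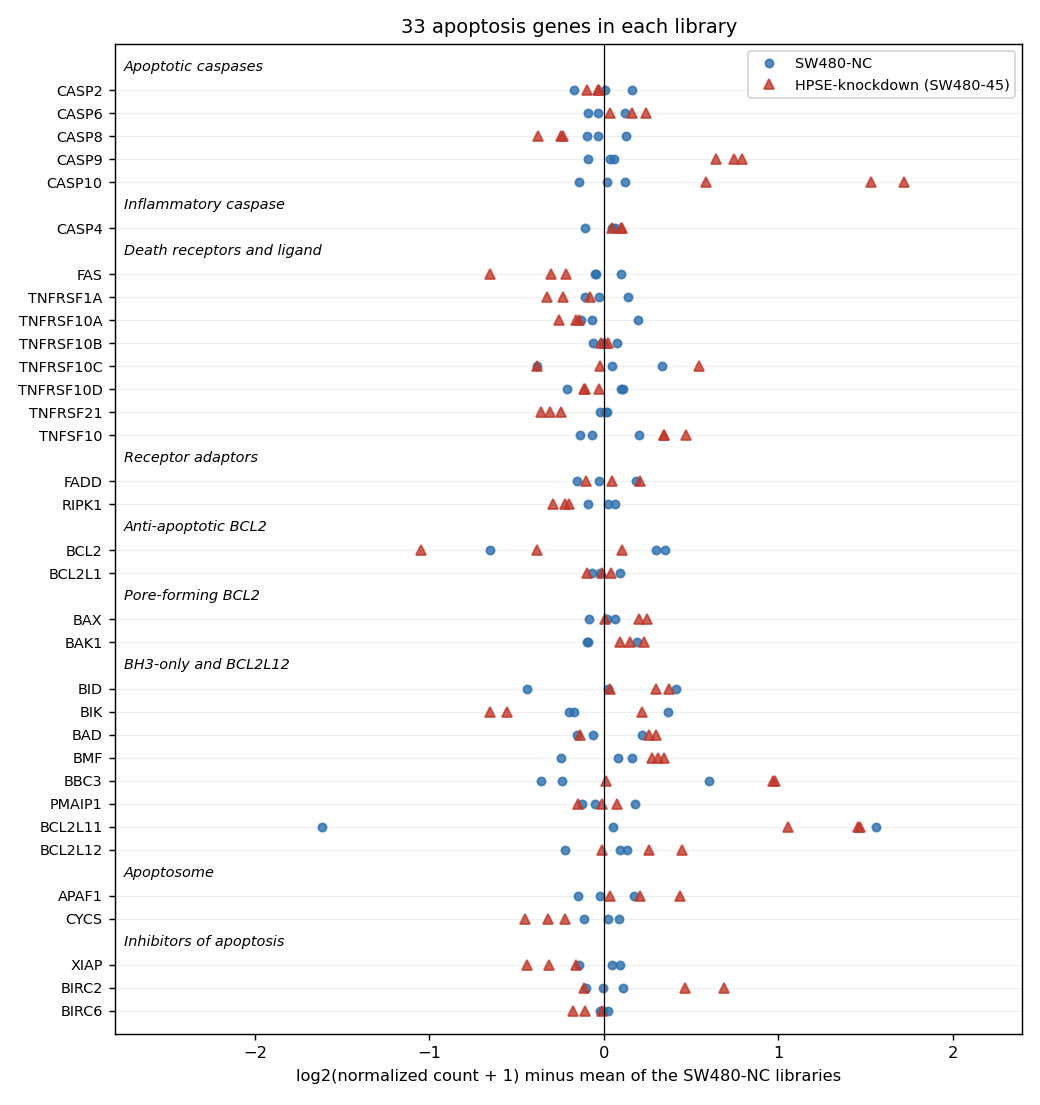
Each of the 33 tested apoptosis genes in each library, as log2(normalized count + 1) minus the mean of the 3 SW480-NC libraries, with SW480-NC as blue circles and SW480-45 as red triangles. CASP9 and CASP10 stand to the right of all their controls, TNFRSF21 and CYCS to the left, and BCL2L11 spreads widest among its own controls, from 103 to 938 normalized counts.

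The plot of single libraries shows that, apart from the 11 genes just counted, the groups overlapped. Of all features, those between the 5th and the 95th percentile had log2 fold changes from −0.68 to 0.77, and CASP10 and BCL2L11 were the apoptosis genes beyond this range. The smallest p-values belonged to CASP9 and TNFRSF21, and therefore the sequences before their starts are printed. Both are the 250 bases before a RefSeq start in GRCh38.p14, on the minus strand, read 5′ to 3′ along the gene. Capitals mark GC boxes, the letters GGGCGG or, on the other strand, CCGCCC.

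CASP9 (chr1:15524216-15524465): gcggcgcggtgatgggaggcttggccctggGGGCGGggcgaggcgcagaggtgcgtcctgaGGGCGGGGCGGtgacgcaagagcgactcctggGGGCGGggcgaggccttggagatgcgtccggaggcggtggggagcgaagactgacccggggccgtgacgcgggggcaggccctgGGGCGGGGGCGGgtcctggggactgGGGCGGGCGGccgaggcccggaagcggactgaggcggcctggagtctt

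TNFRSF21 (chr6:47309906-47310155): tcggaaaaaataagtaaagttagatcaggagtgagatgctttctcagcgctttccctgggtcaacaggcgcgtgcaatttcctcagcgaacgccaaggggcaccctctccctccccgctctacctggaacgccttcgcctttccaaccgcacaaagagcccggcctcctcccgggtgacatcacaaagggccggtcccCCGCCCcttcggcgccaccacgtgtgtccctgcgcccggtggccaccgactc

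The CASP9 stretch lies inside the annotated span of the gene, before a start whose first bases occur in 5 of its 11 GENCODE transcripts. It is 77.6% G and C and holds 8 GC boxes, counted with overlaps, and 0.584% of the 35116 RefSeq promoters hold 8 or more. A further RefSeq start of CASP9, after chr1:15524791-15525040, has 8 GC boxes before it as well. The first bases from that start occur in 0 of the 11 GENCODE transcripts. The TNFRSF21 stretch is 62.0% G and C and holds 1 GC box, which 42.6% of all promoters have at least once. Neither printed stretch holds CCAAT or TATAAA on either strand, letters found in 32.0% and 10.7% of all promoters. Promoters were found for 32 of the 42 genes, and 39 of their 58 promoters hold a GC box. The median share of G and C was 64.4% over these 58 and 58.0% over all promoters. A match is a string of letters only, and binding was not measured.

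Levels can be set side by side between genes only per length. Divided by the annotated exon length, the mean over the 6 libraries was highest for TNFRSF21, at 5197 normalized counts per kb, followed by BCL2L1 with 2898, CYCS with 1893 and BAX with 1669.6. At the other end stood BCL2 with 17.0, TNFRSF10C with 11.7, CASP1 with 2.75 and HRK with 0.111 normalized counts per kb. CASP9 and CASP10, at 39.5 and 32.1 per kb, were the lowest of the tested caspases, well below CASP8 at 533. BCL2L1, which encodes BCL-XL, thus outweighed its relative BCL2 in these cells on the per kb scale.

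**Figure D2:**
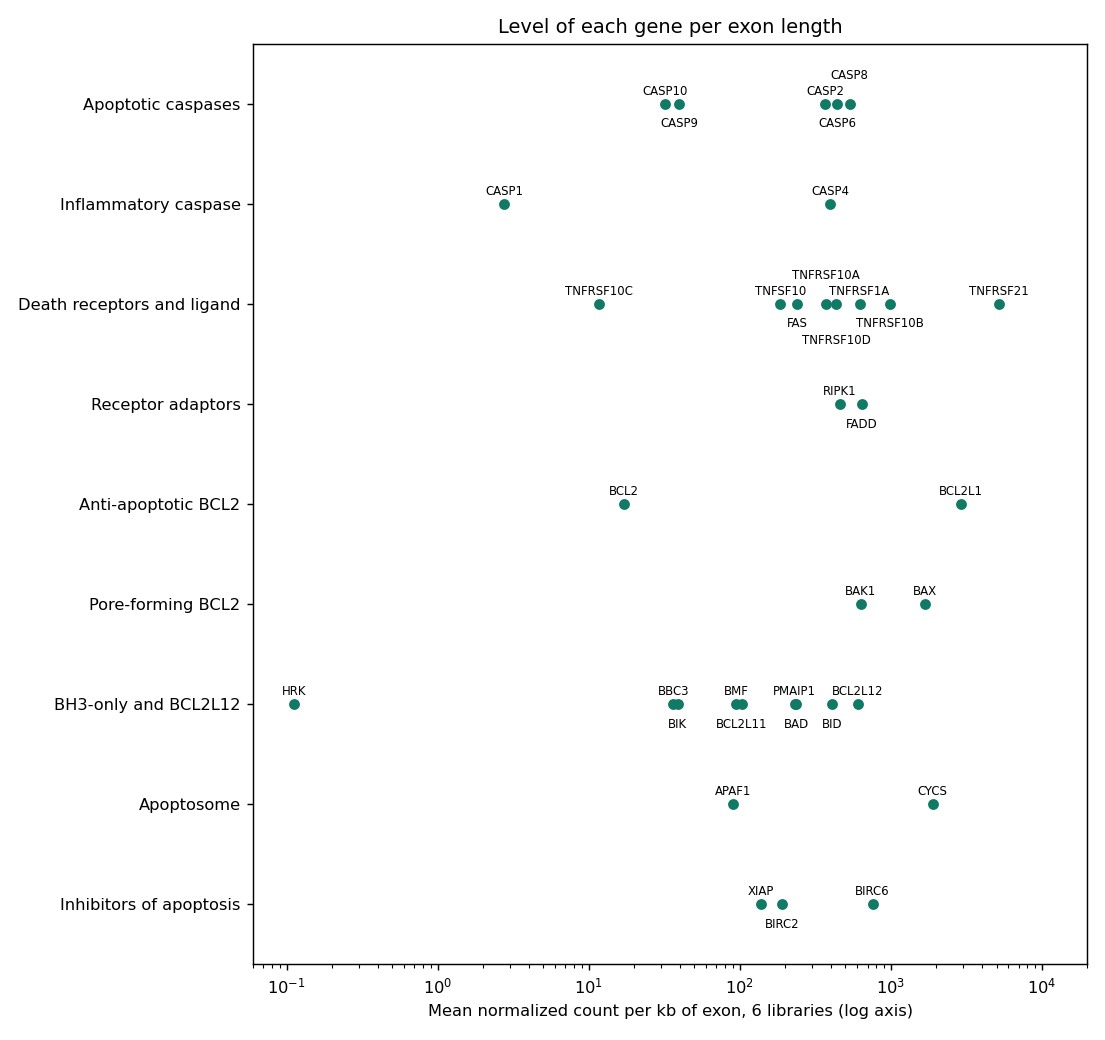
Mean normalized count per kb of annotated exon over the 6 libraries for the 35 apoptosis genes with a row, on a log axis and grouped by role. TNFRSF21 reaches 5197 and HRK 0.111, and within the anti-apoptotic BCL2 group BCL2L1 lies at 2898 and BCL2 at 17.0.

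Among the apoptotic caspases, 5 genes were tested, of which CASP9 and CASP10 were higher and CASP8 lower at an unadjusted p under 0.05. CASP10 encodes an initiator caspase of the death receptors and lies on chromosome 2 of GRCh38, chr2:201182881-201229406 on the plus strand. It held 180.3, 349 and 399 normalized counts in the 3 knockdown libraries, against 109, 122 and 130.4 in the controls. All 3 knockdown values were above all controls, and the first knockdown library was much nearer to the controls than the others. The means were 309 ± 114 and 120.3 ± 10.9 (SD, n = 3 each), a log2 fold change of 1.28 with a 95% interval from 0.62 to 1.94. The adjusted p was 0.102 from limma and ranged from 0.000175, from DESeq2, to 0.208 over the other settings that kept every library. Without SW480-45 replicate 1 the log2 fold change was 1.63 and the adjusted p 0.0227 from limma. With any other library left out in turn, the adjusted p lay between 0.150 and 0.293 in limma. The within-group SD of CASP10 on the log2 scale was larger than that of 90.9% of features with a similar level. The study singled out CASP10 on these same samples, so that its position here is no independent evidence. The study also measured CASP10 by qRT-PCR and reports that this matched its sequencing result. On the opposite strand CASP10 is overlapped by the pseudogenes MTND5P25, MTND4P23 and MTND4LP13, copies of mitochondrial genes, and the sources used here do not state that strand was kept.

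CASP8, the main initiator caspase of the death receptors, is the next gene on the same strand, and its start lies 4.037 kb beyond the end of CASP10. Its SW480-45 values were 1774, 1937 and 1956 normalized counts and its SW480-NC values 2516, 2251 and 2149. The groups did not overlap, with the knockdown lower. CASP8 had a log2 fold change of −0.29 (95% interval from −0.49 to −0.08) and an adjusted p of 0.188 from limma. CASP10 made up 9.23%, 15.3% and 16.9% of the summed CASP10 and CASP8 normalized counts in SW480-45, and 4.15%, 5.13% and 5.72% in SW480-NC. This share is given as a description, because CASP10 was chosen by the study on these samples.

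CASP9, the caspase activated in the apoptosome, lies at chr1:15490832-15526534 and overlaps CELA2B on the other strand. It had 214, 230.3 and 237 normalized counts in SW480-45 against 142, 140.0 and 128 in SW480-NC. The 2 sets of values lay far apart beside their spread, and the within-group SD of CASP9 on the log2 scale was larger than that of only 3.95% of features with a similar level. The means of 227 ± 12.0 and 137 ± 7.50 (SD, n = 3 each) gave a log2 fold change of 0.73 with a 95% interval from 0.44 to 1.01. The adjusted p from limma was 0.0525, just above the threshold, and it ranged from 0.00417, from DESeq2, to 0.189 over the other settings with every library. With 1 library left out in turn it lay between 0.0921 and 0.193 in limma. CASP2 and CASP6, with log2 fold changes of −0.05 and 0.15, had overlapping groups, and their 95% intervals ran from −0.28 to 0.18 and from −0.09 to 0.38.

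CASP4, a caspase that senses bacterial lipopolysaccharide and starts inflammatory cell death, was the only inflammatory caspase tested. Its values were 933, 930.2 and 898 in SW480-45 and 805, 908 and 898 in SW480-NC, so that the groups overlapped (log2 fold change 0.08, 95% interval from −0.12 to 0.29). CASP1 was near the limit of detection, with 8.44, 14.4 and 3.77 normalized counts in SW480-45 and 0, 6.76 and 10.6 in SW480-NC. A count of 0 allows up to 3 reads, which is 2.71 to 3.18 normalized counts depending on the library, and no fold is given for this gene.

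**Figure D3:**
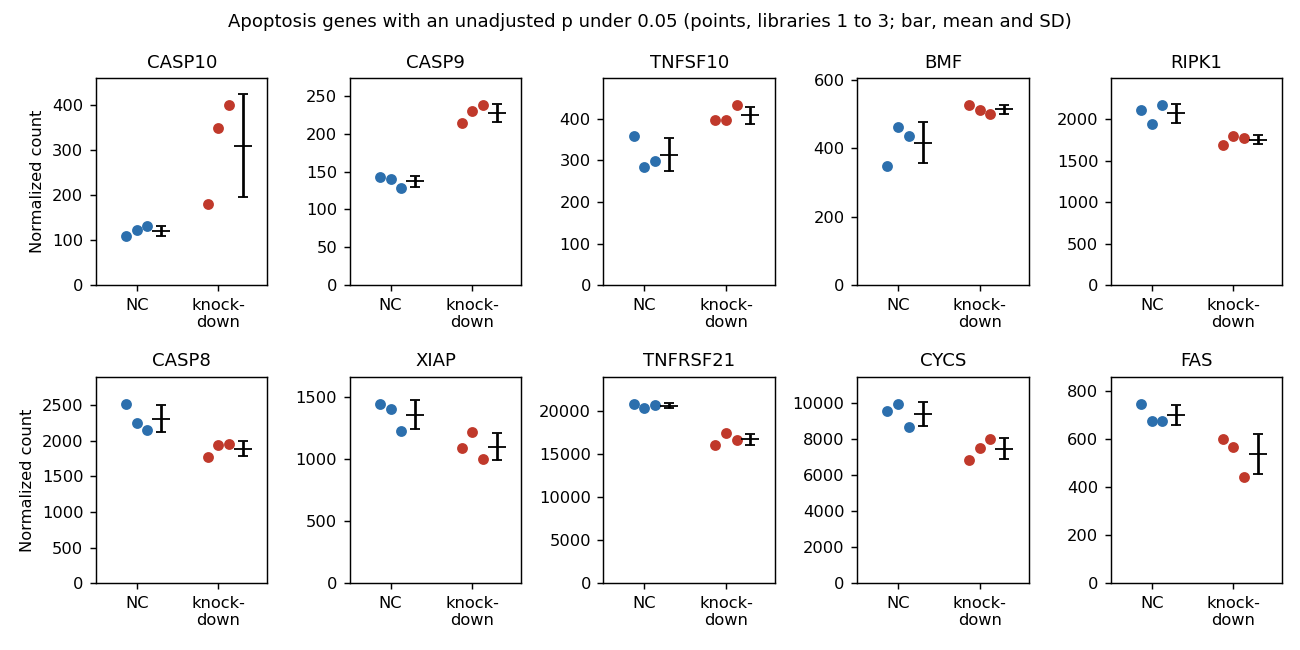
Normalized counts of the 10 apoptosis genes with an unadjusted p under 0.05 from limma, with 1 point per library and, beside the points, the mean and SD of the 3 libraries. Each axis starts at 0, and in every panel the SW480-45 points lie wholly above or wholly below the SW480-NC points.

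Of the 7 death receptors and 1 ligand, FAS and TNFRSF21 were lower and TNFSF10 was higher at an unadjusted p under 0.05. TNFRSF21, known as death receptor 6, had the highest level of all apoptosis genes, with 16085, 17416 and 16666 normalized counts in SW480-45 and 20871, 20339 and 20715 in SW480-NC. The controls lay within a narrow band, and every knockdown value was below it. The log2 fold change was −0.30 (SE 0.05), a level of 81.0% of the control mean, with an adjusted p of 0.057 from limma. Over the other settings with every library the adjusted p ranged from 0.0233, from DESeq2, to 0.232. Leaving out each library in turn gave adjusted p-values from 0.0852 to 0.236 in limma.

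FAS, the receptor of FAS ligand, held 599, 566 and 444 normalized counts in SW480-45 and 746, 675 and 673 in SW480-NC. All knockdown values were lower, the last of them by most. On the log2 scale the fold change was −0.39 (95% interval from −0.70 to −0.08), with an adjusted p of 0.22 from limma. FAS overlaps ACTA2 on the opposite strand, and reads from the overlap cannot be assigned from these values. TNFSF10, the gene of the ligand TRAIL, had 396, 397 and 432 normalized counts in SW480-45 and 359.8, 284 and 298 in SW480-NC, so that the groups stood apart by a small gap. Its log2 fold change was 0.39 (95% interval from 0.10 to 0.68), with an adjusted p of 0.204 from limma.

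The 4 TRAIL receptors lie together on the short arm of chromosome 8 and share much of their sequence, so that reads could be split between them. TNFRSF10B, the death receptor 5, differed least, with a log2 fold change of 0.00 and a 95% interval from −0.15 to 0.16. Its values were 4119, 4011 and 4069 in SW480-45 and 3879, 4029 and 4266 in SW480-NC. TNFRSF10A, the death receptor 4, was lower without overlap, but by a gap that was small beside the control spread (967 at most in SW480-45 and 974 at least in SW480-NC, log2 fold change −0.19, unadjusted p = 0.125 from limma). The decoy receptors TNFRSF10C and TNFRSF10D, which bind TRAIL without a full death domain, had log2 fold changes of 0.05 and −0.08 with overlapping groups. TNFRSF10C did not exceed 28.5 normalized counts in any library. TNFRSF1A, the main receptor of TNF, was at −0.21 with a 95% interval from −0.45 to 0.02.

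RIPK1, the kinase that steers TNF receptor signals towards survival or death, was 1 of the 2 tested adaptors. Its values of 1688, 1799 and 1771 in SW480-45 all lay under those of 2104, 1941 and 2164 in SW480-NC. This corresponded to a log2 fold change of −0.24 (95% interval from −0.42 to −0.06), with an adjusted p of 0.206 from limma. FADD, the adaptor that brings caspases to FAS and the TRAIL receptors, had a log2 fold change of 0.05 and overlapping groups.

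Within the BCL2 family, BCL2L1 had the higher level per kb of the 2 tested genes that protect the mitochondria. It held 8291, 8585 and 7799 normalized counts in SW480-45 and 7949.8, 8205 and 8889.8 in SW480-NC, and the groups overlapped. The log2 fold change was −0.02, and the 95% interval from −0.18 to 0.14 bounds the difference on either side. BCL2 had 168, 236 and 106 normalized counts in SW480-45 against 280.3, 139 and 270.4 in SW480-NC. Its log2 fold change of −0.44 had a wide interval, from −1.27 to 0.39.

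BAX and BAK1, which form the pores, both lay slightly higher in SW480-45 with overlapping groups. BAX had 2644, 2562 and 2241 normalized counts in SW480-45 and 2104, 2259 and 2335 in SW480-NC, which put its log2 fold change at 0.15 (95% interval from −0.06 to 0.36). The value for BAK1 was 0.16, with an interval from −0.08 to 0.40. Per BCL2L1 normalized count, the BAX ratio was 0.319, 0.298 and 0.287 in SW480-45 and 0.265, 0.275 and 0.263 in SW480-NC. The ratio of BAK1 to BCL2L1 was 0.176, 0.179 and 0.180 in SW480-45 against 0.155, 0.150 and 0.168 in SW480-NC. Both ratios were formed after the values had been seen and are given without a test. How often ratios of other gene pairs stand apart between the groups was not counted, so no shift in balance is read from them.

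Among the BH3-only genes and BCL2L12, 8 were tested, 6 of them above 0 in log2 fold change, and only BMF had an unadjusted p under 0.05. BMF, whose product responds to loss of attachment, had 525, 513 and 501 normalized counts in SW480-45 and 348, 463 and 437 in SW480-NC. The knockdown values were close together and above the controls. The log2 fold change was 0.31 (95% interval from 0.01 to 0.61), with an adjusted p of 0.289 from limma. BCL2L12 had the highest level per kb of this group, 601, with 1038, 1427 and 1250.2 normalized counts in SW480-45 and 1114, 897 and 1145 in SW480-NC. It overlaps IRF3 on the other strand, and its groups overlapped at a log2 fold change of 0.23.

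BCL2L11, which encodes BIM, had the largest fitted log2 fold change of the tested apoptosis genes, 1.33, but its control libraries differed widely from one another. By the ratio of group means it reached 176% of the control, below the 257% of CASP10. It held 873, 661 and 879 normalized counts in SW480-45 and 328, 938 and 103 in SW480-NC. The second control library lay above every knockdown value. With that library left out the log2 fold change was 2.11, and with the third control library left out it was 0.52. The within-group SD was 1.14 on the log2 scale, larger than that of 99.2% of the 2406 features with a similar level, and the 95% interval of the difference ran from −0.25 to 2.91. BCL2L11 lies at chr2:111119378-111168447 and is overlapped on the other strand by MIR4435-2HG. BBC3, the gene of PUMA, had 111, 112 and 56.5 in SW480-45 and 85.8, 47.3 and 43.5 in SW480-NC, with overlap (log2 fold change 0.65, 95% interval from −0.18 to 1.48). BID, BAD, BIK and PMAIP1 had log2 fold changes from −0.33 to 0.24, all with overlapping groups. HRK was at 0 in 5 libraries and at 3.86 normalized counts in the second SW480-NC library.

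**Figure D4:**
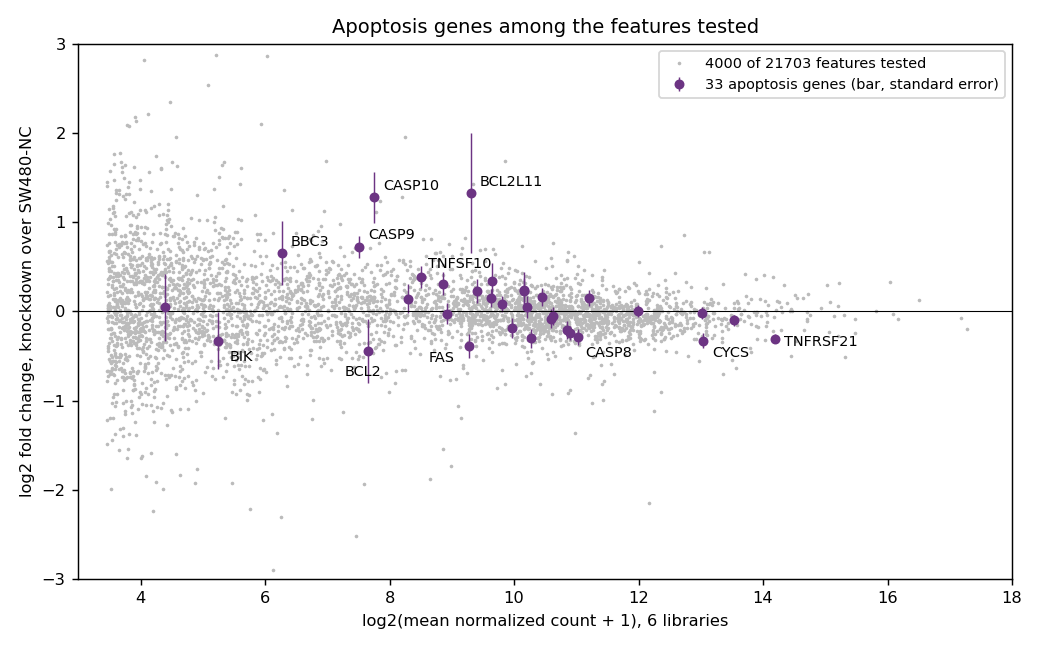
Log2 fold change of SW480-45 over SW480-NC against log2 of the mean normalized count + 1, for 4000 of the 21703 tested features in grey and the 33 apoptosis genes in purple with their standard errors. CASP10 at 1.28 and CASP9 at 0.73 lie above 0, and among the apoptosis genes BCL2L11 at 1.33 has the longest bar.

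In the plot of change against level, the standard error of BCL2L11 was 0.68 and that of TNFRSF21 0.05. CYCS, which encodes cytochrome c, had the higher level per kb of the 2 tested genes of the apoptosome group. Its values were 6869, 7515 and 8041 in SW480-45 and 9557, 9971 and 8663 in SW480-NC, without overlap. CYCS thus had a log2 fold change of −0.33 (95% interval from −0.52 to −0.14), with an adjusted p of 0.13 from limma. APAF1, the scaffold of the apoptosome, had a log2 fold change of 0.23 and a 95% interval from −0.09 to 0.55. It overlaps ANKS1B on the other strand.

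Inhibitors of apoptosis were represented by 3 tested genes. XIAP, which blocks CASP9 and other caspases directly, had 1092, 1217 and 1001 normalized counts in SW480-45 and 1449, 1405 and 1229 in SW480-NC. The groups were separated by a gap of few counts, since the second knockdown library nearly reached the last control. XIAP had a log2 fold change of −0.30 (95% interval from −0.55 to −0.05), with an adjusted p of 0.236 from limma. BIRC6, a very large ubiquitin ligase, had the highest level per kb of the group, 757, with 10863, 11421 and 12173 in SW480-45 and 12112, 12493 and 12248 in SW480-NC. Its groups overlapped, and the log2 fold change was −0.10 (95% interval from −0.24 to 0.04). BIRC2, the gene of cIAP1, varied among the knockdown libraries, with 1125, 643 and 961, against 753, 648 and 693 in SW480-NC, and its log2 fold change was 0.35 (95% interval from −0.11 to 0.80).

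Other genes of the same pathways were taken from lists chosen by function. Of 8 tested ligands, receptors and TRAF adaptors that are not among the 42 genes, TNFSF15 was higher and TNFRSF11B lower at an unadjusted p under 0.05 from limma. Such calls of 1 in 8 each way are near the shares over all features, 8.1% higher and 8.15% lower. TNFRSF11B encodes osteoprotegerin, a soluble receptor that binds TRAIL, and had 173, 188 and 210.1 normalized counts in SW480-45 and 288, 334 and 297 in SW480-NC. Its groups stood apart, with a log2 fold change of −0.69 (SE 0.13) and an adjusted p of 0.0733 from limma, and DESeq2 called it. TNF was listed at 4.22, 2.71 and 3.77 normalized counts in SW480-45 and at 0 in SW480-NC, which is close to the limit that 3 reads set.

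Of 12 tested genes of execution and of the mitochondria, 10 had a log2 fold change below 0, with a median of −0.15, beside 11003 of all 21703 features below 0. At an unadjusted p under 0.05 from limma, PAK2, a kinase that caspases cleave, was at −0.21 and VDAC1, the main channel of the mitochondrial outer membrane, at −0.14, and neither passed limma, edgeR or DESeq2 after adjustment. These 2 of 12 stand beside 8.15% of all features lower at that threshold. PARP1, a classical caspase substrate, was at −0.01. These counts describe the list, whose genes were not tested as a group.

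CASP10 and BIRC2 lie in gene neighbourhoods that were looked at after their values had been seen. In the window that reaches 250 kb to either side of CASP10, 8 genes with an Ensembl identifier were tested. NDUFB3, a subunit of respiratory complex I, rose from 708 ± 31.5 to 1053 ± 76.7 normalized counts (SD, n = 3 each), with a log2 fold change of 0.57 and an adjusted p of 0.0474 from limma. This call was lost in edgeR, with an adjusted p of 0.0518, and with any 1 library left out, when the adjusted p lay between 0.0858 and 0.161 in limma. Besides NDUFB3, CASP10 and CASP8, the genes of this window, from HYCC2 at −0.13 to HNRNPA1P35 at 0.37, did not reach an unadjusted p under 0.05. Of these, only TRAK2, at 0.12, was higher without overlap between the groups (unadjusted p = 0.114 from limma), as 11.4% of all features were. Within 250 kb of BIRC2, 6 genes were tested. MMP7, a matrix metalloproteinase on the minus strand whose near end lies 141.838 kb beyond the end of BIRC2, fell by 1.30 on the log2 scale (SE 0.06, adjusted p = 0.000775 from limma). TMEM123 was at −0.33 without overlap between the groups (unadjusted p = 0.00708 from limma), and YAP1, the gene of a transcriptional coactivator, was at −0.20 with overlap (unadjusted p = 0.0378 from limma). BIRC3, the neighbour that encodes cIAP2, was at −0.26 without overlap (unadjusted p = 0.0643 from limma). BIRC2 at 0.35 and TMEM123-DT at 0.16 had overlapping groups. Among 8 tested genes of a list of chromosome neighbours, 2 passed an adjusted p under 0.05 from limma, NDUFB3 and MMP7. Of all features 0.802% did so. This list was chosen with earlier results of these data known, and both genes also lie in the windows above. The study had named MMP7 as lower on these same samples, so that the count is no evidence about the region. In this list 6 of the 8 were below 0, and at an unadjusted p under 0.05 CLK1, YAP1, TMEM123 and MMP7 were lower and NDUFB3 was higher.

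**Figure D5:**
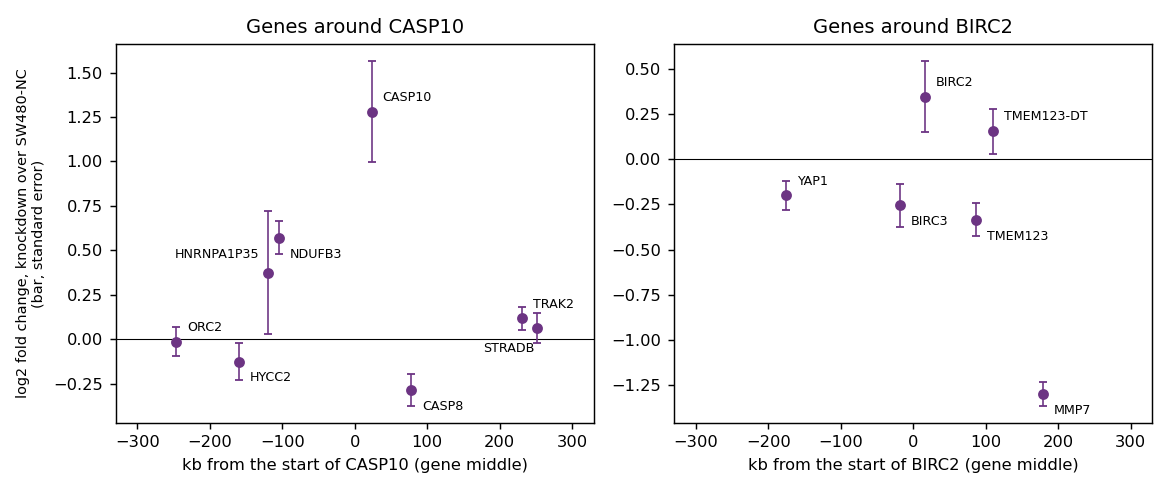
Log2 fold change of SW480-45 over SW480-NC, with its standard error, for the tested genes within 250 kb of CASP10 and of BIRC2, placed by the distance of the gene middle from the start of CASP10 or BIRC2 in kb. CASP10 at 1.28 and CASP8 at −0.29 lie side by side on opposite sides of 0, and MMP7 at −1.30 stands below the other genes around BIRC2.

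In the plot of the neighbourhoods, 5 of the 8 genes around CASP10 were above 0 and 3 below, with 2 higher and 1 lower at an unadjusted p under 0.05 from limma. Around BIRC2, 2 of the 6 genes were above 0 and 4 below, with 0 higher and 3 lower at that threshold. Over all features 8.1% were higher and 8.15% lower at it. The counts around CASP10 include CASP10 itself and CASP8, and both windows were chosen after the values had been seen. Whether such small counts differ from those shares was not tested.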

How the data were processed

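RNA libraries were made with the NEBNext Ultra kit and sequenced on an Illumina HiSeq instrument. The submitters' processing notes name bcl2fastq, HISAT2, DESeq2 and GRCh38, and the study names Cuffdiff; versions are not given in the sources used here. The values deposited are read counts per gene or locus after division by a size factor that the authors set for each library, and are treated as a signal. In each library they were whole multiples of 1 step, and 100% of the values came out whole within 0.01 reads. Of 59192 features, 25927 carry an Ensembl identifier, and the other 33265 are loci of a transcript assembler, which were tested but not named.

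The test was limma 3.58.1 in R 4.3.3 with an intensity trend on log2(normalized count + 1), for features with a mean of at least 10, with Benjamini-Hochberg adjustment over 21703 features. Fold changes on this scale understate those of low genes. An exact permutation test of 3 against 3 libraries cannot go below p = 0.1, which each gene whose groups do not overlap reaches. edgeR 4.0.16 and DESeq2 1.42.0 were run on the recovered reads. The scripts were tested on simulated data. Replicates of a group differed by more than sampling noise (chi-square per feature from 21.7 to 26.7). Floors cover counting error only.

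The members, gene lists and neighbourhoods were chosen with earlier results of these data known. Values in every library are given for CASP10, for each gene with an unadjusted p under 0.05 and for the gene with the highest mean in each role. BCL2, BCL2L11, BBC3, BIRC2, TNFRSF10B, CASP1 and HRK were added after their values had been seen, as were HPSE, TNFRSF11B, TNF, the ratios and the neighbourhood windows. Results of some other listed genes are not reported here. Coordinates are from GENCODE 29 on GRCh38 and promoters from RefSeq. The plots used matplotlib 3.10.9 under Python 3.11.15.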

Additional observations from a re-analysis of the deposited data

How the results depend on the processing

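With a pseudocount of 5, TMM rescaling, no intensity trend, the replicate block or edgeR, 0 apoptosis genes passed an adjusted p under 0.05. All features with any value gave 1 (CASP10, log2 fold change 1.28), a mean of at least 50, robust variance and Ensembl identifiers alone gave 2 each (CASP9 and TNFRSF21), and DESeq2 gave 3, with CASP10 at 1.36. Quantile normalization gave 0 and a median over the genes of 0.061 instead of 0.046. HPSE ranged from −0.90 to −0.82 over the settings with every library; at −0.83 it passed an adjusted p under 0.05 with all features, a mean of at least 50, robust variance, Ensembl identifiers alone and DESeq2. With 1 library left out in turn, the count ranged from 0 to 1 (CASP10 without SW480-45 replicate 1), the log2 fold change of CASP10 from 1.06 to 1.63, that of HPSE from −0.93 to −0.76, and the median from −0.0054 to 0.10, with a sign that changes without SW480-45 replicate 1 or without SW480-NC replicate 2. The genes higher at an unadjusted p under 0.05 numbered 4 to 5 and those lower 4 to 6, and all features at an adjusted p under 0.05 numbered 29 to 93 instead of 174. The count of all features also moved to 11 without the intensity trend, 119 with quantile normalization and 756 with DESeq2. Titles share replicate numbers between the groups. Over all tested features, the deviations of same-numbered libraries from their group means had correlations from −0.0202 to 0.00741. These values show no strong shared shift. They cannot show whether same-numbered libraries were handled together, or whether some genes share a shift. The replicate block left 12 features in all and 0 apoptosis genes, with CASP10 at 1.28 and HPSE at −0.83. No value of the genes with an unadjusted p under 0.05 reversed under any of these settings, and the causes of the other differences were not tested. With 3 libraries a group, small differences of genes such as BCL2, BIK and BBC3 are bounded only loosely. On the log2 scale the within-group SD of BCL2 was larger than that of 94.3% of features with a similar level. For BBC3 this share was 89.2% and for BIK 54.0%.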

Other observations

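Of 8 tested genes of necroptosis and pyroptosis, other forms of programmed cell death, 1 was higher and 2 were lower at an unadjusted p under 0.05 from limma, beside 8.1% and 8.15% of all features, and 0 passed limma, edgeR or DESeq2 after adjustment. MLKL, which ruptures the membrane in necroptosis, had 1305, 1233 and 1418 normalized counts in SW480-45 and 1748, 1622 and 1633 in SW480-NC. The knockdown values were all lower, at a log2 fold change of −0.34 (SE 0.09, adjusted p = 0.131 from limma). RIPK2, a kinase of bacterial sensing, was at −0.24 and NINJ1, which breaks up the membrane of dying cells, at 0.43. GSDMD, the pore protein of pyroptosis, was at 0.14 with overlapping groups.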
